A study of Saccharomyces cerevisiae with 4 samples.

Results

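The aminoacyl-tRNA synthetase genes of Saccharomyces cerevisiae were followed here through a treatment with honokiol. They were chosen by name as 31 genes, 18 for cytosolic enzymes and 13 for mitochondrial ones, and each was found through 1 probe set of the platform annotation among the 5449 yeast genes tested. The cytosolic genes are ALA1, CDC60, DED81, DPS1, FRS1, FRS2, GLN4, GRS1, GUS1, HTS1, ILS1, KRS1, MES1, SES1, THS1, TYS1, VAS1 and WRS1, and the mitochondrial genes are DIA4, ISM1, MSD1, MSE1, MSF1, MSK1, MSM1, MSR1, MST1, MSW1, MSY1, NAM2 and SLM5. All 31 lay above the background of the arrays, and 0 of their probe sets carry a mark for binding several transcripts.

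The honokiol cultures were of BY4741, a wild-type laboratory haploid (mating type a) with deletions in HIS3, LEU2, MET17 and URA3, given 12 µg/mL of the compound for 2 h. Honokiol is a biphenolic compound from magnolia bark. The control cultures were the same strain with the same volume of ethanol, the solvent. Cells of both groups were grown in YPD, a rich glucose medium, with a labelled age of 8 h. Each group has 2 arrays, called biological replicates in the labels, and the comparison asks which transcripts differ after honokiol. The labels do not say how the cultures were handled beyond that, so p-values measure the spread between these arrays only.

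A synthetase joins an amino acid to its own tRNA, and the ribosome then uses the charged tRNA. Yeast has separate nuclear genes for many of the cytosolic and mitochondrial enzymes, whereas some genes, ALA1, GRS1, HTS1 and VAS1 among them, supply both compartments. The enzymes fall into class I and class II, which have unrelated catalytic folds. When charging fails, uncharged tRNA activates the kinase Gcn2, which raises translation of the transcription factor Gcn4.

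Most synthetase transcripts were lower with honokiol, and by modest amounts. By limma with Benjamini-Hochberg adjustment over all tested genes at a threshold of 0.05, 20 of the 31 genes fell and 0 rose. Among all tested genes, 25.0% fell and 23.9% rose, 48.9% in either direction. At an unadjusted limma p under 0.05, 21 members were lower and 1, MSK1, was higher. Over all tested genes 3122 of 5449 were under it, in either direction. The median log2 fold change was -0.30 over the 31 genes, against 0.01 over all tested genes. Fold changes of 28 of the 31 were smaller than 1.5-fold in either direction, and the falls of ISM1, MSF1 and MSD1 were larger. Both honokiol arrays lay below both ethanol arrays for 26 of the 31 genes, against 40.2% of all tested genes, and above them for 2 genes, against 40.0%. In RNA from a whole culture, a lower level in every cell and a loss from some of the cells cannot be told apart.

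**Figure D1:**
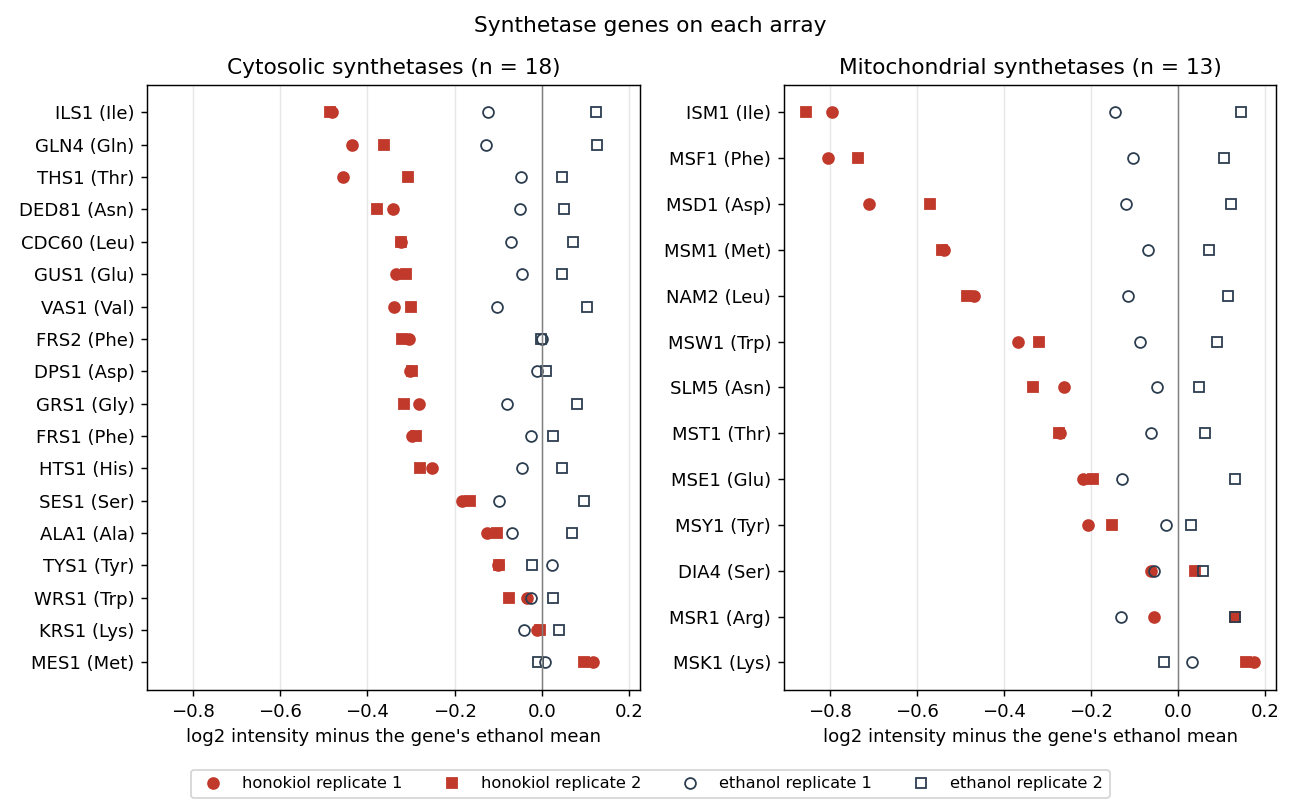
Log2 intensity of each synthetase gene on each of the 4 arrays, as the difference from the gene's mean over the 2 ethanol arrays (horizontal axis), for cytosolic genes on the left and mitochondrial genes on the right. Filled red symbols are honokiol arrays and open symbols ethanol arrays; circles are replicate 1 and squares replicate 2. The honokiol points lie left of both ethanol points for 16 of 18 cytosolic and 10 of 13 mitochondrial genes.

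Of the 18 cytosolic genes 12 fell, 0 rose and 6 did not pass the test. The 12 falls were close to each other in size, with log2 fold changes from -0.48 to -0.27. The largest was that of ILS1, the isoleucyl enzyme. ILS1 had log2 intensities of 12.47 and 12.47 with honokiol, against 12.83 and 13.08 with ethanol. The honokiol arrays were nearly identical and lay below both controls, which differed from each other by 0.25. ILS1 fell by 0.48 ± 0.10 on the log2 scale (SE from the fit), or 1.40-fold lower with honokiol, with adjusted p = 0.0161.

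GLN4, the glutaminyl enzyme, had 11.30 and 11.37 with honokiol, against 11.61 and 11.86 with ethanol, and fell by 0.40 ± 0.10 (adjusted p = 0.0312). Its controls also stood apart, with ethanol replicate 2 the higher of the pair. THS1, the threonyl enzyme, had 12.94 and 13.09 with honokiol, against 13.35 and 13.44 with ethanol (fell by 0.38 ± 0.08, adjusted p = 0.0175). DED81, the asparaginyl enzyme, had 12.613 and 12.577 with honokiol, against 12.903 and 13.004 with ethanol (fell by 0.36 ± 0.07, adjusted p = 0.0125). The groups did not overlap for either gene.

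The phenylalanyl enzyme is made of an alpha subunit, encoded by FRS2, and a beta subunit, encoded by FRS1. FRS2 had 11.73 and 11.71 with honokiol, against 12.04 and 12.03 with ethanol. FRS1 had 12.40 and 12.41 with honokiol, against 12.68 and 12.73 with ethanol. Both transcripts fell, by 0.31 ± 0.06 and 0.29 ± 0.06 on the log2 scale (adjusted p = 0.0118 and 0.0152). For both genes, arrays of the same group lay much closer to each other than to the other group.

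CDC60 (leucyl), GUS1 (glutamyl, an enzyme of which a part is also imported into mitochondria) and DPS1 (aspartyl) fell too, with log2 fold changes of -0.32, -0.32 and -0.30 and adjusted p of 0.0214, 0.015 and 0.0132. Of ALA1, GRS1, HTS1 and VAS1, 4 genes that each encode a cytosolic and a mitochondrial form, 3 fell. VAS1, the valyl enzyme, had 12.20 and 12.24 with honokiol, against 12.44 and 12.65 with ethanol (log2 fold change -0.32, adjusted p = 0.0376), and it no longer passed without ethanol replicate 2 (adjusted p = 0.0519). GRS1 (glycyl) and HTS1 (histidyl) had log2 fold changes of -0.30 and -0.27, with adjusted p of 0.0312 and 0.0254. ALA1, the alanyl enzyme, had 12.33 and 12.35 with honokiol, against 12.38 and 12.52 with ethanol, and did not pass (log2 fold change -0.11, 95% confidence interval -0.30 to 0.07, adjusted p = 0.241).

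The other 5 cytosolic genes that did not pass were SES1 (seryl), TYS1 (tyrosyl), WRS1 (tryptophanyl), KRS1 (lysyl) and MES1 (methionyl). SES1 had a log2 fold change of -0.17 with an interval from -0.39 to 0.05. It passed without ethanol replicate 1 (-0.27, adjusted p = 0.0201) and was at -0.08 without ethanol replicate 2. TYS1 had -0.10 (interval -0.25 to 0.05) and WRS1 had -0.05 (interval -0.21 to 0.10). These intervals overlap those of some genes that passed, but not of all. The WRS1 interval lies above that of ILS1 (-0.74 to -0.23). Differences between genes were not tested. KRS1 arrays overlapped between groups, with 12.61 and 12.62 for honokiol inside the ethanol values of 12.58 and 12.66. MES1 had 12.02 and 12.00 with honokiol, against 11.91 and 11.89 with ethanol. It was the only cytosolic gene with a positive fold change here, though WRS1 turned positive with quantile normalization repeated, and KRS1 did so without ethanol replicate 2 or in a fit adjusted for RNA quality. Its log2 fold change was 0.11 with an interval from -0.04 to 0.26 (adjusted p = 0.172).

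**Figure D2:**
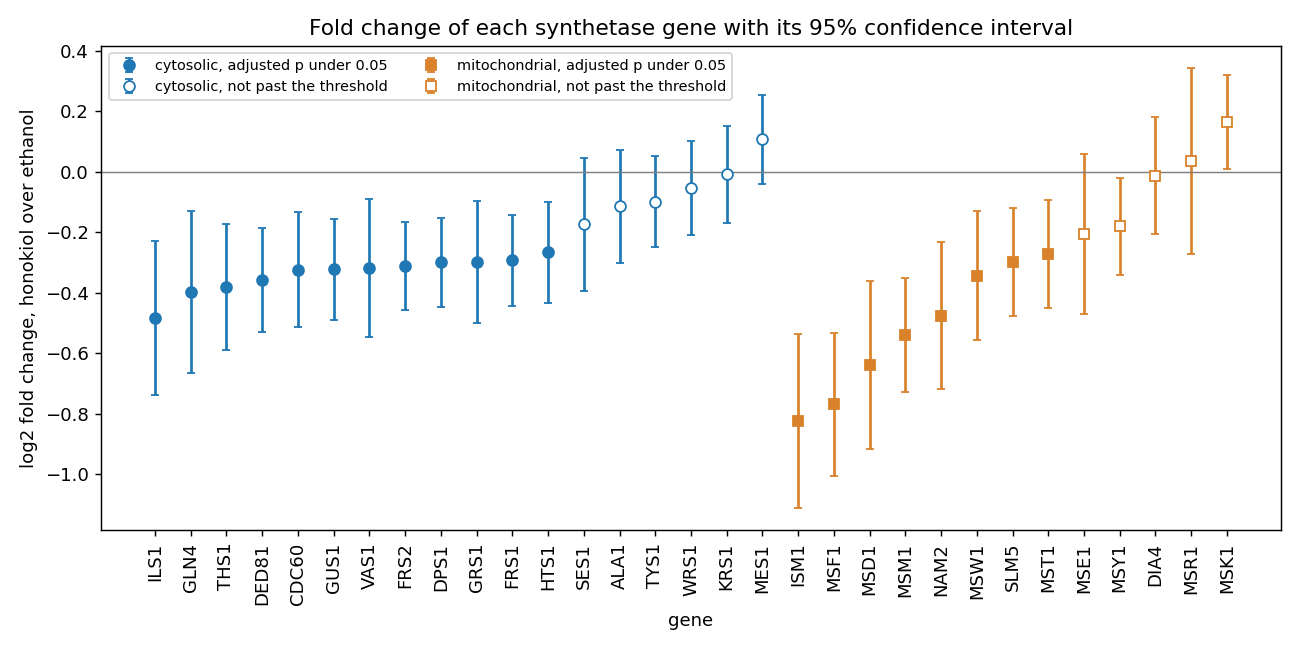
Log2 fold change of honokiol over ethanol for each synthetase gene (vertical axis) with its 95% confidence interval from the limma fit, ordered by size within cytosolic (blue circles) and mitochondrial genes (orange squares). Filled symbols passed an adjusted p of 0.05: 12 of 18 cytosolic and 8 of 13 mitochondrial genes, all below 0.

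Of the 13 mitochondrial genes 8 fell, 0 rose and 5 did not pass. Their falls spread more widely, with log2 fold changes from -0.82 to -0.27. The mitochondrial genes were all dimmer on the arrays than the cytosolic ones, and whether intensity bears on this spread was not tested. ISM1, the mitochondrial isoleucyl enzyme, had 8.68 and 8.63 with honokiol, against 9.34 and 9.62 with ethanol. It fell by 0.82 ± 0.11 (1.77-fold lower, adjusted p = 0.0058), and only 1.85% of tested genes had a lower fold change. The lower of its controls was still 0.65 above the higher honokiol array.

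MSF1, the mitochondrial phenylalanyl enzyme, which works as a single chain unlike the cytosolic enzyme, had 8.45 and 8.52 with honokiol, against 9.15 and 9.36 with ethanol. It fell by 0.77 ± 0.09 (1.70-fold lower, adjusted p = 0.00437). It was the only member that passed in this fit and in all 13 alternatives run. MSD1, the mitochondrial aspartyl enzyme, had 9.13 and 9.27 with honokiol, against 9.71 and 9.96 with ethanol, and fell by 0.64 ± 0.11 (adjusted p = 0.00971). MSM1, the mitochondrial methionyl enzyme, had 9.14 and 9.14 with honokiol, against 9.61 and 9.75 with ethanol, and fell by 0.54 ± 0.07 (adjusted p = 0.00568). For these 3 genes the gap between the nearest arrays of the groups was 0.45 to 0.63 on the log2 scale.

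NAM2 encodes the mitochondrial leucyl enzyme, which also takes part in splicing of mitochondrial introns. NAM2 had 8.67 and 8.65 with honokiol, against 9.02 and 9.25 with ethanol, and fell by 0.48 ± 0.09 (adjusted p = 0.0147). MSW1 (tryptophanyl), SLM5 (asparaginyl) and MST1 (threonyl) fell by 0.34, 0.30 and 0.27 on the log2 scale, with adjusted p of 0.0248, 0.0227 and 0.0296. MST1 no longer passed without ethanol replicate 2 (adjusted p = 0.0520).

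MSK1, the mitochondrial lysyl enzyme, whose precursor takes part in import of a cytosolic lysine tRNA, was on the other side. It had 10.63 and 10.61 with honokiol, against 10.49 and 10.43 with ethanol. Both honokiol arrays were above both controls, but the difference did not pass (log2 fold change 0.16, interval 0.01 to 0.32, adjusted p = 0.0766). With quantile normalization repeated it passed (adjusted p = 0.0479). MSE1 (glutamyl) and MSY1 (tyrosyl) had log2 fold changes of -0.21 and -0.18 and did not pass (adjusted p = 0.151 and 0.0653). MSE1 passed without ethanol replicate 1 (-0.34, adjusted p = 0.0102), and was at -0.08 without ethanol replicate 2 and -0.02 in the fit adjusted for RNA quality. DIA4, the mitochondrial seryl enzyme, had 7.68 and 7.78 with honokiol, against 7.69 and 7.80 with ethanol. MSR1, the mitochondrial arginyl enzyme, had 8.42 and 8.61 with honokiol, against 8.35 and 8.61 with ethanol. For DIA4 and MSR1 the groups overlapped, with intervals of -0.21 to 0.18 and -0.27 to 0.34.

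The mitochondrial and cytosolic enzymes had nearly the same median log2 fold change, -0.30 over the 13 and -0.30 over the 18. On each array, the median deviation of the mitochondrial genes from their own means was -0.13 and -0.15 with honokiol, against 0.08 and 0.23 with ethanol. For the cytosolic genes it was -0.15 and -0.14 with honokiol, against 0.08 and 0.18 with ethanol. Both sets of medians were below 0 on both honokiol arrays, and the 4 lowest fold changes of the 31 were all mitochondrial (ISM1, MSF1, MSD1 and MSM1). No test of the difference between compartments was made.

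For 12 amino acids both a cytosolic and a mitochondrial gene are among the members, which gives 13 pairs because the cytosolic phenylalanyl enzyme has 2 genes. Both genes of the pair fell in 7 pairs, covering 6 amino acids: asparagine, aspartate, isoleucine, leucine, phenylalanine and threonine. In 2 pairs the mitochondrial gene passed and the cytosolic one did not, in 1 pair the reverse, and in 3 pairs neither passed. The mitochondrial fold change was the lower one in 8 pairs and the cytosolic one in 5. The methionyl pair stood furthest apart, with -0.54 for MSM1 and 0.11 for MES1. The lysyl pair had 0.16 for MSK1 and -0.01 for KRS1, and neither passed. The isoleucyl pair held the largest fall of each compartment, ISM1 and ILS1. Over the 13 pairs, which share the 4 arrays and count MSF1 in 2 pairs, the log2 fold changes correlated at a Pearson r of 0.44, as a description.

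**Figure D3:**
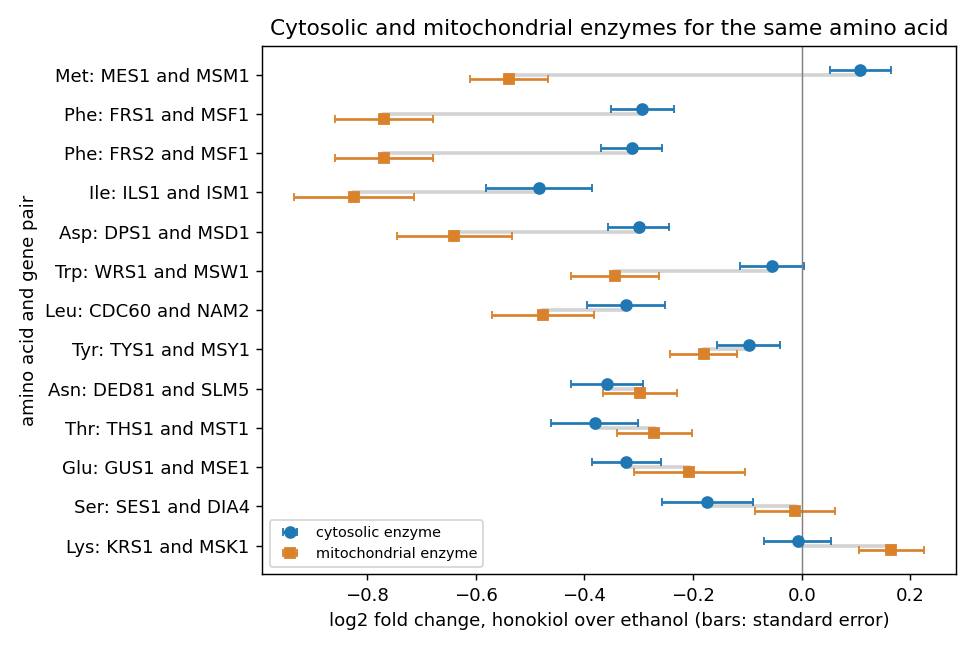
Log2 fold change of honokiol over ethanol (horizontal axis) of the cytosolic (blue circles) and mitochondrial enzyme (orange squares) for the same amino acid, 13 gene pairs ordered by their difference, with standard errors from the limma fit. The mitochondrial square lies left of the cytosolic circle in 8 pairs, with the widest gap for methionine.

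The structural classes had similar counts. Of 15 class I members 9 fell (60.0%), with a median log2 fold change of -0.32. Of 16 class II members 11 fell (68.8%), with a median of -0.30. Over all tested genes 25.0% fell, and 32.2% did among the other genes within the members' range of lengths. The largest falls came from both, ISM1 being class I and MSF1 class II.

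Further genes of tRNA charging, from a list drawn up for this comparison, did not all move with the members. GRS2, a paralog of GRS1, had 9.07 and 9.18 with honokiol, against 9.67 and 9.71 with ethanol, and fell by 0.56 ± 0.07 (adjusted p = 0.00455), against the fall of 0.30 for GRS1. YHR020W, a further synthetase gene outside the members, rose 1.23-fold (adjusted p = 0.0138). YHR020W had 12.27 and 12.26 with honokiol, against 11.96 and 11.97 with ethanol. It is the neighbour of DED81 in the R64 annotation, and DED81 fell. YDR341C, also a synthetase gene outside the members, had a log2 fold change of -0.18 and did not pass (adjusted p = 0.0639). ARC1, a cofactor that binds the methionyl and glutamyl enzymes, had -0.15 and did not pass (adjusted p = 0.117). YNL247W (CRS1) was not analysed here. Mitochondrial glutaminyl-tRNA is made by an amidotransferase from tRNA first charged with glutamate. Of its 3 subunit genes HER2 fell by 0.24, PET112 had a log2 fold change of -0.22 and did not pass, and GTF1 rose 1.28-fold (adjusted p = 0.0457, 0.0714 and 0.0224).

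A list of 11 genes around Gcn2 holds the kinase with its activators and an inhibitor, GCN4, and genes for the initiation factors eIF2 and eIF2B. Of these 3 fell (27.3%, close to the 25.0% of all tested genes) and 0 rose (against 23.9%), with a median log2 fold change of -0.13. The 3 were GCN20 (fell by 0.58, adjusted p = 0.00437) and GCN1 (fell by 0.45, adjusted p = 0.0229), whose products act together on the kinase, and GCN2, the kinase itself (fell by 0.43, adjusted p = 0.0336). GCN4 mRNA had 13.52 and 13.50 with honokiol, against 13.32 and 13.36 with ethanol, and did not pass (adjusted p = 0.0669); it was chosen for mention after its values were seen. Gcn4 is controlled mainly at translation, which the arrays do not measure.

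More genes that modify tRNA rose than fell. Of 40 tested tRNA modification genes 21 rose (52.5%, against 23.9% of all tested genes), with a median log2 fold change of 0.26. Only 1 fell (2.5%, against 25.0%), DUS3, a dihydrouridine synthase, named after its values were seen. The largest rises were those of 3 methyltransferases. TRM11 had 8.46 and 8.50 with honokiol, against 7.10 and 6.44 with ethanol, and rose 3.27-fold (adjusted p = 0.00546). TRM2 rose 2.44-fold and TRM1 2.04-fold (adjusted p = 0.00374 and 0.00138). The TRM11 controls stood well apart, and both were below the honokiol arrays.

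Of 21 genes for tRNA end processing, splicing and export 9 rose and 2 fell, with a median of 0.16. POP8 and POP5, protein subunits of the RNase P that trims the 5′ end of tRNA precursors, rose 2.78-fold and 1.65-fold (adjusted p = 0.00138 and 0.00285). LHP1, the yeast La protein that binds the 3′ ends of precursors, rose 1.77-fold (adjusted p = 0.00174). RPM2, of the mitochondrial RNase P, and LOS1, a tRNA exporter, were the 2 that fell, chosen for mention after their values were seen. For mitochondrial translation factors 3 of 11 fell and 2 rose, with a median of -0.05. The elongation factors MEF2 and MEF1 fell by 0.75 and 0.42 (adjusted p = 0.00316 and 0.0117), and the tRNA-modifying MTO1 rose 1.38-fold (adjusted p = 0.0183). TUF1 also fell and SLM3 also rose, both outside the rule for named genes. These lists were compared with the synthetases by their counts and medians only, beside 23.9% of all tested genes rising and 25.0% falling.

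**Figure D4:**
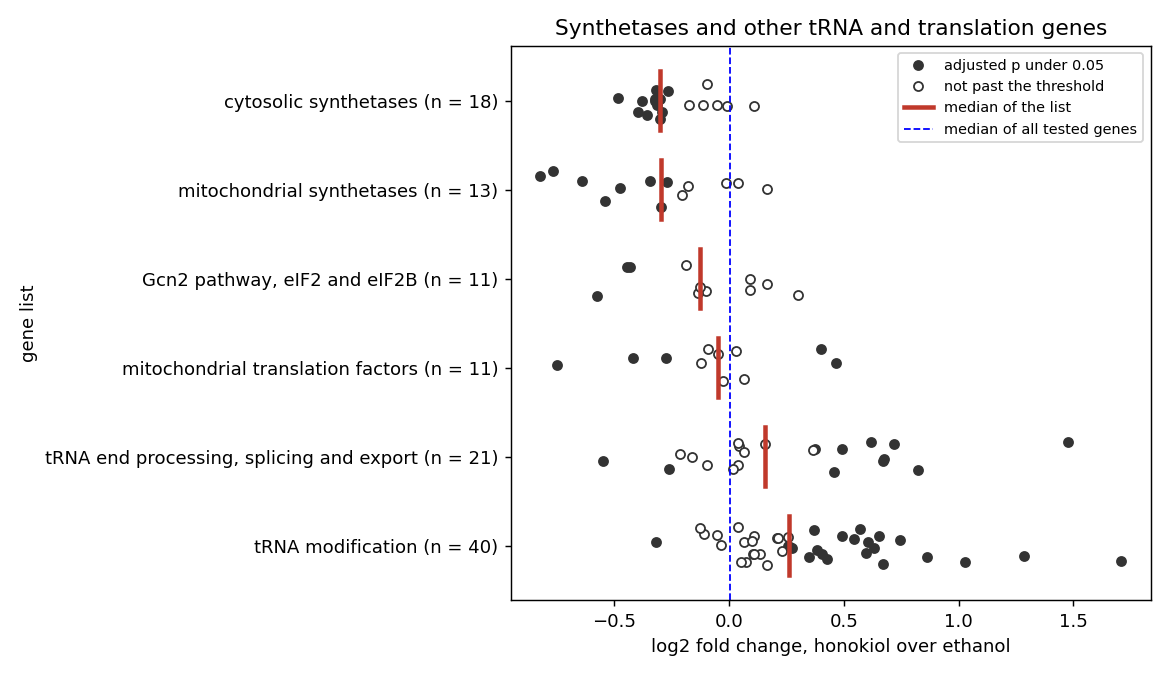
Log2 fold change of honokiol over ethanol (horizontal axis) for each gene of the cytosolic and mitochondrial synthetases and of 4 other lists of tRNA and translation genes. Filled points passed an adjusted p of 0.05, red bars mark each list's median and the dashed line the median of all tested genes (0.01); the synthetase medians lie at -0.30 and the tRNA modification median at 0.26.

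Coding length and RNA quality moved with these results. The members are long genes, with coding lengths from 1140 to 3315 bases and a median of 1731, against a median of 1236 for all tested genes, 1315.5 for the tRNA modification list and 828 for the end processing list. Over all tested genes, the median log2 fold change was -0.17 over the 1362 genes with the longest coding sequences and 0.14 over the 1363 with the shortest. Among the 2596 other genes within the members' range of lengths, the median was -0.08, 32.2% fell and 20.7% rose. The mean log2 5′/3′ ratio of 4 yeast control transcripts was -0.955 and -1.003 on the honokiol arrays, against -1.049 and -1.376 on the ethanol arrays. Ethanol replicate 1 was thus close to the honokiol arrays, and ethanol replicate 2 stood apart. Both ethanol arrays were lower for ACT1, EAF5 and RIP1. SPT15 did not separate the groups (-1.709 and -1.778 with honokiol, -1.659 and -1.886 with ethanol). The part of length or RNA quality in the members' falls was not tested beyond the values given here. Fitted together with this ratio, 6 cytosolic genes (DED81, DPS1, FRS1, FRS2, GUS1 and ILS1) and 5 mitochondrial ones (ISM1, MSD1, MSF1, MSM1 and NAM2) passed as lower. The medians were -0.208 for the cytosolic and -0.215 for the mitochondrial genes. That fit adds a coefficient on the same 4 arrays and so leaves fewer residual degrees of freedom. The ratio was lowest on ethanol replicate 2, so it is not independent of the fit without that array.

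**Figure D5:**
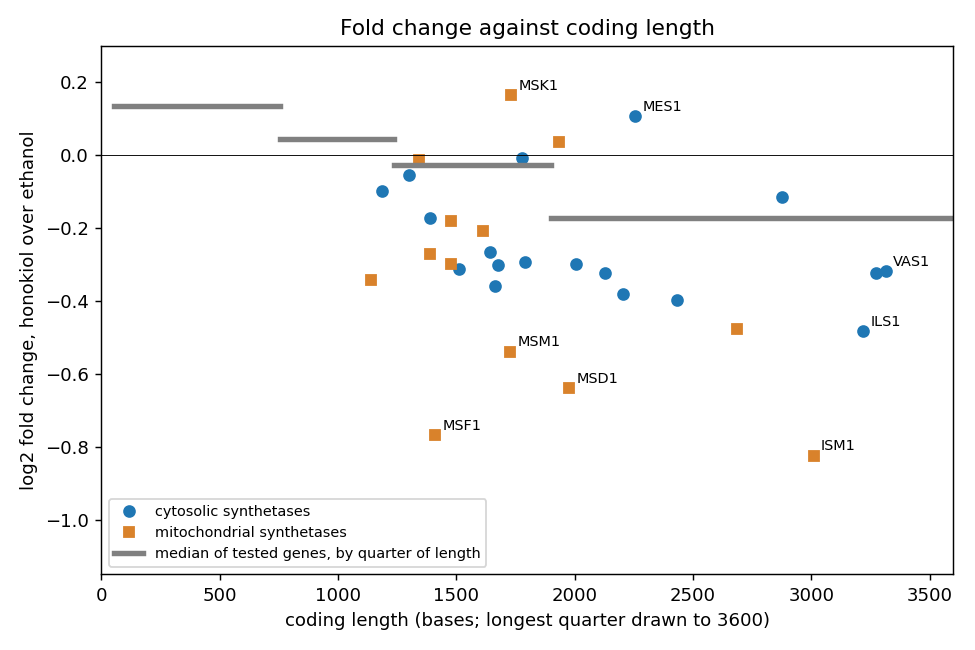
Log2 fold change of honokiol over ethanol (vertical axis) against coding length in bases (horizontal axis) for cytosolic (blue circles) and mitochondrial synthetase genes (orange squares); grey bars are the median of all tested genes in each of 4 bins of coding length. The grey medians run from 0.14 for the shortest bin to -0.17 for the longest, and the synthetases lie between 1140 and 3315 bases.

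Ethanol replicate 2 read higher than ethanol replicate 1 for 27 of the 31 genes, by a median of 0.12. Over all tested genes it did so for 2508 of 5449, with a median of -0.01. Among the 1362 genes with the longest coding sequences it did so for 1025, with a median of 0.10. The honokiol pair differed by a median of 0.01 over the members. Without ethanol replicate 2, 11 cytosolic and 7 mitochondrial genes fell, and without ethanol replicate 1, 13 and 9 fell. Without either honokiol array, which left 1 array in that group, most calls of members were lost. Without honokiol replicate 1 the median log2 fold change was -0.298 over the cytosolic and -0.320 over the mitochondrial genes. Without honokiol replicate 2 these medians were -0.300 and -0.271. When all 10762 probe sets other than controls were tested, 3 cytosolic and 5 mitochondrial genes passed as lower. Only 5498 probe sets of the array named 1 yeast gene, and only 47 genes had several. The features added were thus mostly probe sets with no yeast gene. In the fits without a honokiol array the spread came from the ethanol pair alone, and the medians were between -0.32 and -0.27 in both compartments.

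Across the series, the SD over genes of the difference between replicate arrays was 0.121 for honokiol and 0.209 for ethanol, so the arrays were not copies. The a-cell genes MFA1, MFA2 and STE2 lay at 12.47 or above on all arrays. By limma, MFA1 and STE2 fell with honokiol (log2 fold changes -0.69 and -0.42, adjusted p = 0.00308 and 0.00598), and MFA2 did not pass. LEU2, MET17 and URA3 lay near or below the background of 4.37 (at most 4.56), whereas HIS3, of which BY4741 lacks only a part, lay between 10.70 and 11.05. Of the alpha-cell genes, MF(ALPHA)1 was below background, while MF(ALPHA)2 lay between 5.45 and 6.58 and STE3 between 7.14 and 7.98. STE3 rose with honokiol (log2 fold change 0.59, limma adjusted p = 0.0249), and the other alpha-cell genes did not pass.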

How the data were processed

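RNA of 4 cultures was measured on Affymetrix arrays. The authors deposited a linear intensity for every probe set. RMA is the tool that the submitters' processing notes name (version not given in the sources used here). Values ran from 2.58 to 22549, so log2 was taken here, with no pseudocount. Of 10928 probe sets, 5498 named 1 yeast gene through the platform annotation and the R64 gene table. The brightest probe set of each of 5449 genes was tested. Background (4.37) is the 95th percentile of mean log2 intensity over the 1746 probe sets whose annotated gene is not in the yeast table.

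Groups were compared with limma 3.58.1 in R 4.3.3, two-sided, with 2 residual and 2.76 prior degrees of freedom and Benjamini-Hochberg adjustment over the 5449 genes. Only 4 arrays limit the precision. Simulated for 5449 genes with 200 changed, the fit recovered 56.8% of log2 changes of 0.5 and 93.2% of log2 changes of 1. In the data 48.9% of genes were called, far more than were changed in the simulation, so these rates do not carry over directly. Changes smaller than 0.5, the size of most members' changes, were not simulated. The members, lists and tests were chosen with earlier results of these data known. All 31 members are named, with every gene of the lists of further charging genes. Those lists were drawn up here and may not hold every charging gene. Of each other list, up to 3 genes with the largest called change are named. DUS3, GCN4, RPM2, LOS1, TUF1 and SLM3 lie outside that rule and were named after their values were seen. No coordinates are given because the genome build was not named in the labels or headers. Alternatives were the variance prior, quantile normalization, centring, a dim filter, the features tested, a gene's probe sets, shared targets, a replicate block, a 5′/3′ covariate and leaving out each array.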

Additional observations from a re-analysis of the deposited data

How the results depend on the processing

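All 20 called members kept their direction in the 13 alternatives run. Direction was open to change only with quantile normalization, centring, the 5′/3′ covariate or an array left out. The other alternatives changed the variance, the features or a balanced block, and left the members' fold changes as they were. Leaving out 1 array at a time gave 705 to 3190 called genes in all, 0 to 13 called cytosolic genes and 1 to 9 called mitochondrial genes. The cytosolic median then ranged from -0.32 to -0.24, the mitochondrial median from -0.35 to -0.25, and the difference of medians, cytosolic minus mitochondrial, from -0.030 to 0.031, on either side of 0. With all probe sets except AFFX controls as features, 1763 were called, with 3 cytosolic and 5 mitochondrial members. That alternative adjusts over 10762 features, mostly adding probe sets with no yeast gene, and it refits the variance prior. The SE of ILS1 was 0.107 in it, against 0.098 in the main fit. Adding the 5′/3′ ratio of control transcripts, 6 cytosolic and 5 mitochondrial members were called, and the medians were -0.208 and -0.215. The cause was not tested. No member was called in a setting that changed its sign. WRS1 was at 0.017 and MSR1 at -0.044 with quantile normalization repeated. KRS1 was at 0.050 and DIA4 at 0.077 with the 5′/3′ covariate. When single arrays were left out, KRS1 ranged from -0.0481 to 0.0329, DIA4 from -0.0690 to 0.0441 and MSR1 from -0.0935 to 0.1668. The replicate numbers share only a number: with it as a block (replicate block), 12 cytosolic and 8 mitochondrial members and 2809 genes were called, with medians of -0.2996 and -0.2977 differing by -0.0019. Same-numbered arrays deviated together at a correlation of 0.325.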
